A study of Mus musculus with 2 samples.

Results

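The neurotrophic factors and receptors described here are 10 genes: the ligands Ntf3, Bdnf, Cntf and Gdnf and the receptors Ntrk3, Ntrk2, Ngfr, Gfra1, Gfra3 and Ret. They were taken from both count matrices by gene symbol, as 10 of the 32285 genes listed there. The rule that lists them names symbols and uses no measured value, but the genes were chosen with earlier results of these data known. The study measured RNA of single cells of cochlear sensory epithelium from mice of the C57BL/6J strain, 4 to 6 weeks old. All ears were exposed to noise of 105 dB in an octave band of 8 to 16 kHz for 2 h and dissected 2 days later. In the drug-treated group (drug-noise), ears were given a drug (VPA in the series title) at 90 mg/ml ahead of the exposure. The other group (noise-only) was the opposite ears of these mice, left untreated. How the drug was applied was not given in the sources used here. Each group was 5 ears pooled in 1 library, so no difference between the groups has a replicate check, no test was possible, and every interval below covers counting error only. A group without noise was not analysed here.

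Neurotrophins are secreted proteins that keep neurons alive and shape their processes. In the inner ear, brain-derived neurotrophic factor (Bdnf) and neurotrophin-3 (Ntf3) from the sensory epithelium act on ganglion neurons through the receptor kinases TrkB (Ntrk2) and TrkC (Ntrk3), with the p75 receptor (Ngfr) as a shared partner. Ciliary neurotrophic factor (Cntf) is a cytokine made by myelinating Schwann cells that lacks a secretion signal, and it acts through Cntfr, Lifr and Il6st. Glial cell line-derived neurotrophic factor (Gdnf) binds Gfra1 and the related ligand artemin binds Gfra3, and both complexes use the receptor kinase Ret.

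Filters on genes, transcripts, mitochondrial share and predicted doublets left 16618 noise-only and 17536 drug-noise cells. The median number of unique transcripts (UMIs) per cell was 1128 and 1128.5, and the median mitochondrial share 4.86% and 6.72%. The doublet caller marked 4.62% of noise-only and 12.9% of drug-noise cells, with different thresholds. The 2 barcode lists share 111 barcode sequences. Clustering was done without the 10 genes and without the 68 genes of the pathway lists used below, so the levels by cell class did not shape the classes. A cell class is called X-like from fixed markers, and the 20 classes that reached 100 cells in both libraries entered the comparison. Although the labels name sensory epithelium, the myelinating Schwann-like class was 32.7% of noise-only and 19.0% of drug-noise cells.

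Levels are given in CPM, a gene's UMIs scaled to the total UMIs of its class and library. Libraries made from transcript ends cannot tell the kinase forms of Ntrk2 and Ntrk3 from their truncated forms, nor the transcripts of the separate Bdnf promoters. Free RNA in droplets puts UMIs of a gene into cells that do not make it. The immune classes pooled (1182 noise-only and 1574 drug-noise cells) served as the reference for that background. Reference levels were highest for Gfra1, at 18.1 and 13.7 CPM in noise-only and drug-noise cells, and for Cntf, at 15.0 and 14.8 CPM. Ntrk2 stood at 8.67 and 10.8 CPM there, Ntrk3 at 4.73 and 5.41 CPM, and the other 6 genes at 1.58 CPM or less in both libraries. One macrophage-like cluster with a median of 839 and 737.5 UMIs per cell (cluster 20) alone held 18 and 15 of the 38 and 41 reference UMIs of Cntf.

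**Figure D1:**
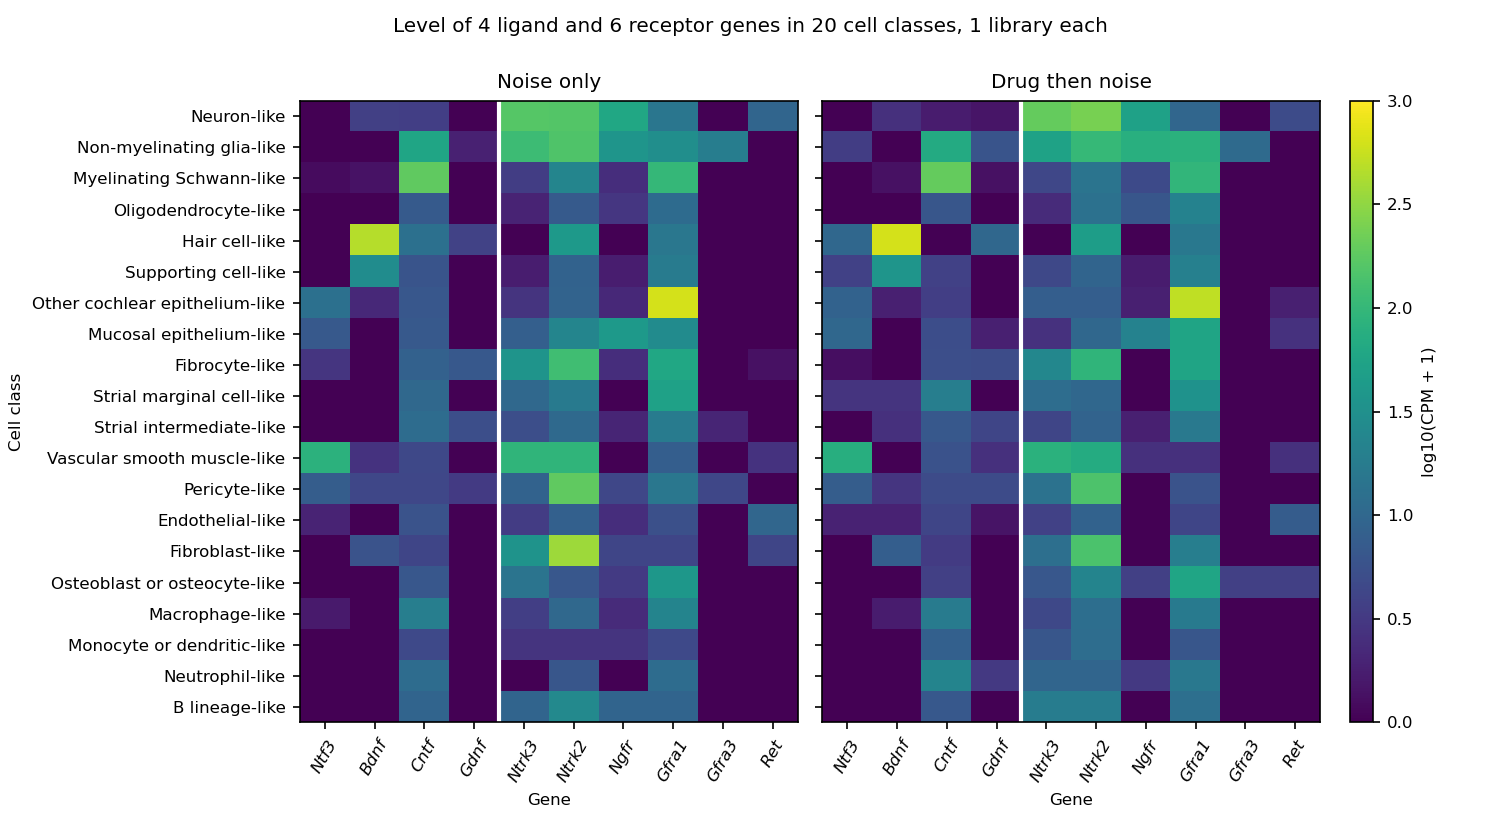
Level of each gene (columns; ligands left and receptors right of the white line) in each of 20 cell classes (rows), as log10(CPM + 1), for the noise-only library (left) and the drug-noise library (right). Bdnf stood out in hair cell-like cells, Ntf3 in vascular smooth muscle-like cells, Cntf in the Schwann-like classes and Gfra1 in other cochlear epithelium-like cells, in both libraries.

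Bdnf was concentrated in hair cell-like cells. Its level there was 463 CPM in noise-only cells (158 UMIs in 105 cells) and 636 CPM in drug-noise cells (211 UMIs in 156 cells). At least 1 Bdnf UMI was seen in 72.4% and 68.6% of these cells, against 0% and 0.0635% of the immune reference cells, and after thinning to 1000 UMIs the shares were 43.6% and 45.3% of the 101 and 148 hair cell-like cells with at least that many. The median depth was 2367 and 1814 UMIs per hair cell-like cell. The drug-noise level was the higher one, at a ratio of 1.37 (95% counting interval 1.11 to 1.70), below the 1.5-fold set here for a call.

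This class joined 2 clusters that differed in their Bdnf. Cluster 32, led by Xirp2, Cib3 and Cabp2, had 652 CPM and 706 CPM, a ratio of 1.08 (0.858 to 1.37). The small cluster 44, of 20 and 28 cells, had 176 CPM and 450 CPM, a ratio of 2.55 (1.51 to 4.41). The interval excluded 1 in cluster 44 and not in cluster 32. Hair cell markers also had higher drug-noise levels in cluster 44: the ratio was 1.65 (1.17 to 2.35) for Otof, 1.95 (1.14 to 3.39) for Tmc1 and 4.48 (1.12 to 25.7) for Strc, while that of Espn was 0.923 (0.709 to 1.20) and that of Ocm 0.283 (0.106 to 0.642). Gad1, Otol1 and St8sia2 were among the leading genes of cluster 44 and also of the supporting-cell-like cluster 35, and the cells of cluster 44 had a median of 5456 and 2977.5 UMIs. In the whole class, the summed level of 11 hair cell markers was 4458 and 4543 CPM, that of 10 myelinating Schwann markers 3360 and 1988 CPM, that of 9 fibrocyte markers 96.7 and 684 CPM, and that of 7 osteoblast or osteocyte markers 14.6 and 1359 CPM. The part of such RNA, or of the markers that differed in cluster 44, in the Bdnf ratio was not tested. Slc26a5, the motor protein gene of outer hair cells, had no UMI in the hair cell-like class, whereas Otof stood at 841 and 1039 CPM and Slc17a8, the glutamate transporter gene of inner hair cells, at 264 and 322 CPM. Ocm, another gene of outer hair cells, stood at 310 and 124 CPM in this class, with its 106 and 41 UMIs in 8 cells of each library. Which kind of hair cell carried the Bdnf UMIs, and whether of the cochlea or of a balance organ, was not resolved here.

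Supporting-cell-like cells were the next class for Bdnf, at 28.0 CPM (39 UMIs) and 35.4 CPM (51 UMIs), a ratio of 1.27 (0.819 to 1.98). Within the class, the UMIs lay in the Ceacam16- and Epyc-rich cluster 6, with 39 and 50 UMIs, and cluster 35 had 0 and 1. Neuron-like cells had 15 and 7 Bdnf UMIs, or 2.74 and 1.61 CPM. In both libraries the hair cell-like class stood above the supporting-cell-like class beyond counting error, and that class above the fibroblast-like class, which came next with 3 UMIs in each library. Over all cells, the Bdnf level was 6.69 and 9.47 CPM, a ratio of 1.42 (1.19 to 1.69), and 1.16 with each cluster at its noise-only weight.

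Ntf3 was a low gene, with 87 and 86 UMIs in all cells. Among the compared classes its level was highest in vascular smooth muscle-like cells. Vascular smooth muscle-like cells held 48 and 47 of these UMIs, at 82.8 CPM and 74.2 CPM. The ratio there was 0.897 (0.587 to 1.37), so the libraries did not differ beyond counting error. At least 1 UMI was seen in 15.3% and 10.4% of the cells, and in 0.0846% and 0% of the immune reference cells. Other cochlear epithelium-like cells followed at 11.7 and 7.68 CPM (19 and 9 UMIs; ratio 0.657, 0.262 to 1.52), mucosal epithelium-like cells at 5.83 and 9.08 CPM, and pericyte-like cells at 6.71 and 6.69 CPM. Smooth muscle-like cells stood above the next class beyond counting error in both libraries, and the neighbours that followed in the order did not differ in this way. Hair cell-like cells had 0 and 3 Ntf3 UMIs and supporting-cell-like cells 0 and 4, both near the floor of 3 UMIs. With the kind of hair cell not resolved, these counts do not settle the Ntf3 level of the cochlear sensory epithelium. No Ntf3 UMI was seen in neuron-like cells of either library.

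Among the compared classes, Cntf was highest in the 2 Schwann-like ones. Beyond these classes, the unnamed cluster 22, led by Hba-a2 and Hbb-bs, held 26 and 29 Cntf UMIs in 183 and 272 cells. The macrophage-like cluster 20 held 18 and 15 in 267 and 212 cells. Myelinating Schwann-like cells had 185 CPM in the noise-only library (885 UMIs) and 195 CPM in the drug-noise library (519 UMIs), a ratio of 1.06 (0.948 to 1.18). Non-myelinating Schwann or satellite glia-like cells had 56.4 and 67.5 CPM (64 and 27 UMIs), a ratio of 1.20 (0.733 to 1.90). Both intervals included 1, and the myelinating class stood above the non-myelinating one in both libraries. The part of free RNA in the non-myelinating level was not tested.

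The myelinating class itself was uneven in Cntf. Cluster 0, led by Otop1, Ncmap and Fam178b, had 235 and 271 CPM, a ratio of 1.15 (1.02 to 1.31). Cluster 1, led by Pou3f1 and Cldn19, had 101 and 108 CPM, a ratio of 1.07 (0.844 to 1.34). The gap between the clusters was larger than either gap between libraries, and 17.3% and 17.7% of cluster 0 cells had a Cntf UMI, against 6.28% and 6.48% in cluster 1. Thinning to 1000 UMIs dropped most cells of both clusters: of the 1126 and 491 cells left in cluster 0, 21.0% and 22.6% had a Cntf UMI, and of the 138 and 84 left in cluster 1, 10.1% and 7.14%. Over all cells, Cntf was 34.8 and 24.9 CPM, a ratio of 0.714 (0.651 to 0.783). The myelinating class held 5438 noise-only and 3337 drug-noise cells, and with each cluster at its noise-only weight the ratio over all cells was 1.24. Cntf (chr19:12763660-12765632, minus strand) shares 847 exon bases with Zfp91 on the same strand, so reads of the 2 genes may be hard to assign; how the authors' counting treated them was not given in the sources used here.

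Gdnf was close to the detection floor, with 32 and 41 UMIs among all cells. The only compared class with at least 20 UMIs was the fibrocyte-like class, a connective tissue type of the lateral wall, with 15 and 14 UMIs. Of these, 15 and 12 were in cluster 3, led by Fst, Inmt and Dpep1, at 10.5 and 10.4 CPM (ratio 0.989, 0.423 to 2.26). Hair cell-like cells had 1 and 3 Gdnf UMIs, and myelinating Schwann-like cells had 0 and 1.

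**Figure D2:**
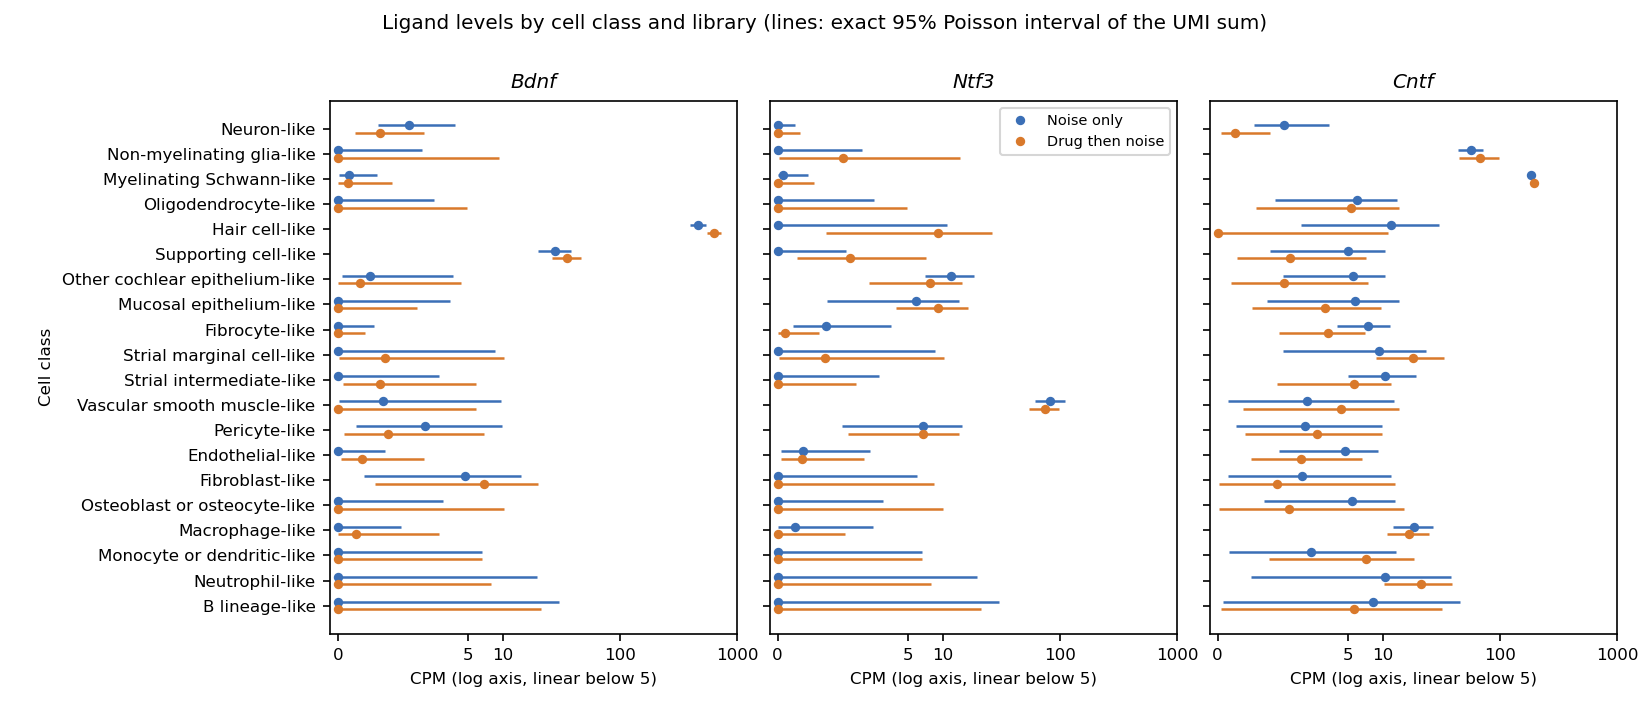
Level in CPM (horizontal axis, logarithmic above 5) of Bdnf, Ntf3 and Cntf in 20 cell classes (rows), with noise-only cells in blue and drug-noise cells in orange; lines are exact 95% Poisson intervals of the UMI sums. Each ligand had 1 class above all others in both libraries: hair cell-like for Bdnf, vascular smooth muscle-like for Ntf3 and myelinating Schwann-like for Cntf.

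The DNA upstream of these 3 ligand genes is shown because each was high in a different cell class. RefSeq windows of 250 bases before a start site (build GRCm38.p6) were used for 7 of the 10 genes, 15 windows in all, and were searched on both strands for 6 motifs. Capitals mark matches. The window of the third of 7 Bdnf start sites (chr2:109692186-109692435, plus strand) holds the cAMP-response-like TCACGTCA, 38 bases before the start, and ACAAAG, a core bound by SOX factors, 171 bases before it. The only Cntf window (chr19:12765633-12765882, minus strand) and the second of 2 Ntf3 windows (chr6:126164961-126165210, minus strand) hold none of the 6. The Bdnf window printed is the only one of that gene with a match, and the Ntf3 window printed is the one without.
Bdnf, start site 3: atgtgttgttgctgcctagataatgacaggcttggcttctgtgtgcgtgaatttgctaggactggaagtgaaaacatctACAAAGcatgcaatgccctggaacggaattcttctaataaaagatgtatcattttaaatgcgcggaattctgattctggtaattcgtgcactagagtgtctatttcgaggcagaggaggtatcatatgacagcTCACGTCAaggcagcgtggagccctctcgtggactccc
Cntf: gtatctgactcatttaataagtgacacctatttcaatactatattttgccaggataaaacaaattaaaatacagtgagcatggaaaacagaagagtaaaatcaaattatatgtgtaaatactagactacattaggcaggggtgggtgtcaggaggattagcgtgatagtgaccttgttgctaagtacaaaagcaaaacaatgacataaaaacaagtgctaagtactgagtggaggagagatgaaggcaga
Ntf3, start site 2: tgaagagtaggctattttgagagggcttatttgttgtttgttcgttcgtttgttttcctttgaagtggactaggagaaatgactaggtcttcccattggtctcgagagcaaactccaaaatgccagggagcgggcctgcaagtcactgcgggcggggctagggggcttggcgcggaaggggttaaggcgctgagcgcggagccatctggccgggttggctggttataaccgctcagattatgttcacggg

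Among all 32851 RefSeq windows of this length, TCACGTCA was found in 0.350% and ACAAAG in 16.5%. The other motifs searched were the full cAMP-response element TGACGTCA (1.55% of all windows), the CArG box of smooth muscle genes by its name (1.47%), TATAAA (12.4%) and the E-box CACGTG (6.02%). Besides the matches above, CACGTG was found in the first Ntf3 window, 231 bases before the start, and TATAAA in the first Gdnf window, 31 bases before it. No CArG box was found in either Ntf3 window. A match describes the letters and shows no binding, and a UMI does not tell which start site its transcript came from.

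Among the compared classes, Ntrk3 was highest in neuron-like cells, at 162 CPM in noise-only cells (886 UMIs) and 194 CPM in drug-noise cells (843 UMIs). The ratio was 1.20 (1.09 to 1.32). Of the neuron-like cells 78.5% and 72.9% had an Ntrk3 UMI, against 0.846% and 0.889% of the immune reference cells, at median depths of 12827 and 9867 UMIs per neuron-like cell; thinned to 1000 UMIs the shares were 13.5% and 18.6% of 437 and 451 cells, against 0.592% and 0.368% of the immune reference cells. The level and the thinned share were higher, and the unthinned share lower, in the drug-noise library.

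Outside neurons, Ntrk3 was found in vascular smooth muscle-like cells at 89.7 and 82.1 CPM (ratio 0.916, 0.611 to 1.37). An unnamed cluster led by the solute carriers Slc6a13, Slc22a2 and Slc6a12 (cluster 12) had 172 and 162 CPM, a ratio of 0.943 (0.724 to 1.23). Fibrocyte-like cluster 3 had 60.4 and 64.2 CPM. The intervals of these 3 ratios included 1, with 0.769 to 1.47 in cluster 3. In non-myelinating glia-like cells, Ntrk3 was 112 CPM in noise-only cells (127 UMIs) and 52.5 CPM in drug-noise cells (21 UMIs). The drug-noise level was lower there, at a ratio of 0.469 (0.281 to 0.748). Fibroblast-like cells had 34.2 and 11.4 CPM from 21 and 5 UMIs, a ratio of 0.334 (0.0983 to 0.909), with predicted doublets kept 0.438 (0.169 to 1.02). Smooth muscle-like and non-myelinating glia-like cells did not differ in Ntrk3 beyond their intervals in both libraries.

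Ntrk2 was spread more widely. Fibroblast-like cells had 365 CPM in the noise-only library (224 UMIs) and 139 CPM in the drug-noise library (61 UMIs), and neuron-like cells 155 CPM (847 UMIs) and 239 CPM (1038 UMIs). The differences had opposite directions, and the order of the 2 classes changed between the libraries: the ratio was 0.382 (0.283 to 0.508) in fibroblast-like and 1.55 (1.41 to 1.69) in neuron-like cells. Pericyte-like cells, which wrap capillaries, had 185 and 144 CPM (ratio 0.782, 0.623 to 0.981). Non-myelinating glia-like cells had 146 and 102 CPM (0.700, 0.485 to 0.991), fibrocyte-like cells 118 and 90.6 CPM (0.770, 0.657 to 0.903) and smooth muscle-like cells 91.4 and 69.5 CPM (0.760, 0.498 to 1.16). None of these 4 reached the 1.5-fold call. In the non-myelinating glia-like class, 46 and 0 of the Ntrk2 UMIs lay in 1 of the sub-clusters described below (sub-cluster 4, 66 and 6 cells). Without it the ratio was 0.882 (0.603 to 1.27). The fibrocyte-like value turned to 1.16 (0.897 to 1.51) at Leiden resolution 2 and to 1.09 (0.758 to 1.59) with at least 1000 genes per cell. Its clusters 3, 7 and 13 had ratios of 0.840 (0.684 to 1.03), 1.26 (0.878 to 1.81) and 0.892 (0.530 to 1.58), and cluster 13 held 117 noise-only but 695 drug-noise cells. In the fibroblast-like class the summed level of its own 7 markers was 13852 and 11157 CPM, that of 10 myelinating Schwann markers 2544 and 1295 CPM and that of 7 osteoblast or osteocyte markers 926 and 331 CPM; the part of these differences in its Ntrk2 ratio was not tested.

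Ntrk2 was also called lower in 2 classes with low levels. In myelinating Schwann-like cells it was 21.9 and 13.2 CPM, a ratio of 0.602 (0.398 to 0.890), and with at least 500 genes required per cell the ratio was 0.837 (0.513 to 1.33), and with cells thinned to 1000 UMIs it turned to 1.20 (0.519 to 2.63). In mucosal epithelium-like cells it was 22.2 and 9.08 CPM, a ratio of 0.410 (0.176 to 0.906), and with predicted doublets kept 0.732 (0.330 to 1.65). Cluster 16, an unnamed cluster led by Gpr83 and Ccl11, had 306 and 280 CPM (0.916, 0.746 to 1.12). Astrocyte-like cells, too few in the noise-only library for a comparison (34 and 220 cells), had 330 and 604 CPM. Hair cell-like cells had 14 and 15 Ntrk2 UMIs, at 41.0 and 45.2 CPM.

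The p75 receptor gene Ngfr was found in neuron-like cells at 61.0 CPM (334 UMIs) and 50.9 CPM (221 UMIs), a ratio of 0.834 (0.701 to 0.992) that turned to 1.40 (0.738 to 2.71) with cells thinned to 1000 UMIs. In non-myelinating glia-like cells it was 35.2 CPM (40 UMIs) and 77.5 CPM (31 UMIs). The drug-noise level was the higher one in these glia, at a ratio of 2.20 (1.33 to 3.60), so that the order of the 2 classes differed between the libraries. Mucosal epithelium-like cells, marked by Krt15 and Bpifa1, had 40.8 and 20.6 CPM, a ratio of 0.506 (0.290 to 0.869). The summed level of the 5 mucosal markers also differed in that class, at 2124 and 1038 CPM, and its part in the ratio was not tested. Each other compared class had at most 10 Ngfr UMIs in either library.

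The neuron-like class was divided into 8 sub-clusters after the class values had been seen, and their make-up differed between the libraries. Sub-cluster 3, led by Tac1, Pcp4 and Fxyd7, held 9 noise-only and 112 drug-noise cells, and sub-cluster 4, led by Lrrc10b, Ecel1 and Calcb, held 89 and 27. With 1 library a group, a sub-cluster seen mostly in 1 library may be that library and not a kind of neuron. Ntrk2 was highest in sub-cluster 3, at 363 and 417 CPM, and lowest in sub-cluster 4, at 85.2 and 84.1 CPM. In sub-clusters 0, 1 and 2, each with at least 85 cells in both libraries, the Ntrk2 ratios were 0.969 (0.791 to 1.19), 1.07 (0.854 to 1.34) and 1.01 (0.804 to 1.26). The small sub-cluster 5, led by Ttr and Ecrg4, had 127 and 227 CPM from 20 and 27 cells, a ratio of 1.78 (1.14 to 2.84). Over the whole neuron-like class, the summed level of 5 choroid plexus markers was 590 and 18.9 CPM. Of the neuron markers, Syt1 was 17.5 and 218 CPM, a ratio of 12.5 (10.1 to 15.5). Prph was 11.7 and 1.38 CPM, a ratio of 0.118 (0.0418 to 0.272). The other neuron markers had ratios from 0.799 to 1.22. The part of these differences in the ratios of the class was not tested.

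The 1.55-fold higher Ntrk2 of neuron-like cells was thus not seen within sub-clusters 0, 1 and 2. Without sub-cluster 3 the ratio over the class was 1.16 (1.04 to 1.29), without sub-cluster 4 it was 1.43 (1.30 to 1.57), with at least 500 genes required per cell 1.26 (1.10 to 1.43), and with each sub-cluster at its noise-only weight it was 1.07. Ntrk3 stood at 1.07 (0.958 to 1.19) without sub-cluster 3 and at 0.970 with that weighting. Ngfr stood at 0.942 with that weighting. It was by far highest in sub-cluster 7, led by Dupd1 and Crabp1 and with Th among its leading genes, at 498 and 790 CPM, from only 14 and 3 cells.

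A UMI of both Trk genes was seen in most neuron-like cells. At least 1 UMI of each of Ntrk2 and Ntrk3 was seen in 279 of 442 noise-only cells (63.1%; exact 95% interval 58.4% to 67.6%) and in 271 of 457 drug-noise cells (59.3%; 54.6% to 63.8%). Ntrk2 alone was seen in 14.3% and 17.1%, and Ntrk3 alone in 15.4% and 13.6%. An Ntrk2 UMI was seen in 77.4% and 76.4% of neuron-like cells and in 1.61% and 1.78% of the shallower immune reference cells. With cells thinned to 1000 UMIs, these shares were 16.7% and 19.96% against 0.829% and 1.10%. At these depths, a cell with 1 gene seen may carry the other.

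**Figure D3:**
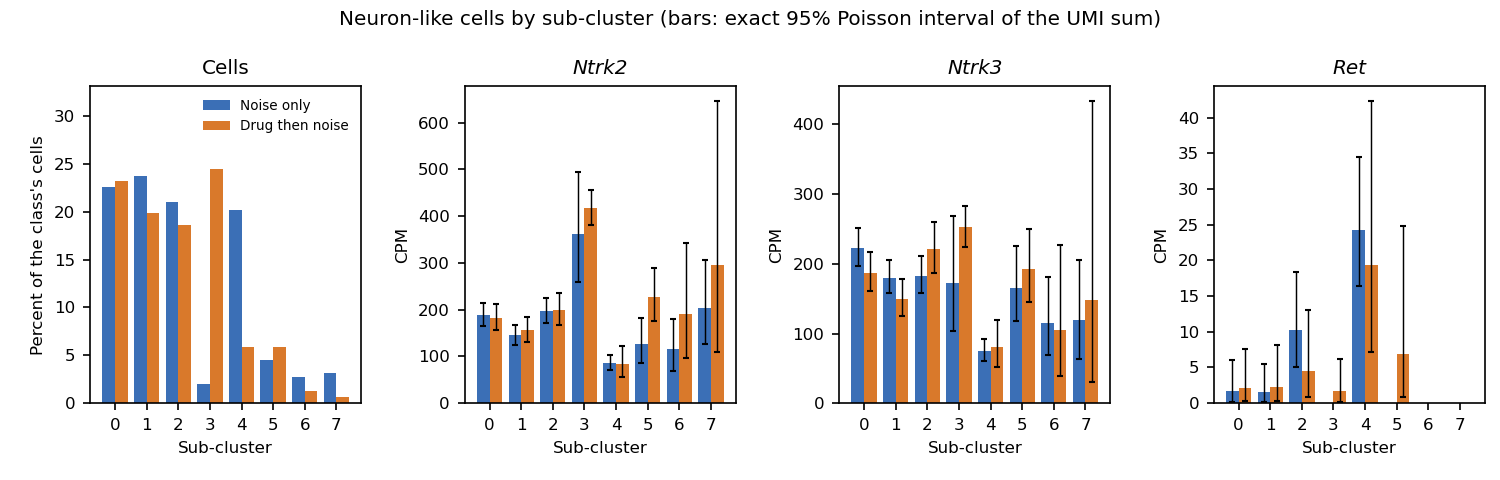
Share of neuron-like cells in each of 8 sub-clusters (left, percent) and the CPM of Ntrk2, Ntrk3 and Ret in each, with noise-only in blue and drug-noise in orange; error bars are exact 95% Poisson intervals of the UMI sums. Ntrk2 was high in sub-cluster 3, which held 112 of 457 drug-noise but 9 of 442 noise-only cells, and Ret UMIs lay mostly in sub-cluster 4.

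Gfra1, the co-receptor that binds Gdnf, had its peak in epithelium outside the named supporting-cell-like class. Other cochlear epithelium-like cells had 636 CPM in the noise-only library (1035 UMIs) and 518 CPM in the drug-noise library (607 UMIs), a ratio of 0.813 (0.735 to 0.900). Nearly all of these UMIs lay in cluster 14, led by Crhbp and Vmo1, at 858 and 686 CPM (0.800, 0.719 to 0.889), where 85.4% and 71.4% of cells had a UMI and 55.3% and 48.5% of the 360 and 340 cells left after thinning to 1000 UMIs. Cluster 30 of the same class, led by Tecta and Mia, had 119 and 147 CPM (1.24, 0.838 to 1.82). The drug-noise level was thus lower in 1 cluster by less than the 1.5-fold call, and in the other the interval spans no change. Gfra1 (chr19:58235604-58455909, minus strand) overlaps 416 exon bases of Gm16277 on the opposite strand, as Bdnf (chr2:109674700-109727007, plus strand) does 896 bases of Gm45346; whether counting used strand was not given in the sources used here.

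Gfra1 also ran through the Schwann-like glia and the lateral wall. Myelinating Schwann-like cells had 98.9 and 93.4 CPM (474 and 248 UMIs), a ratio of 0.945 (0.807 to 1.10), and fibrocyte-like cells 60.7 and 56.1 CPM (0.924, 0.747 to 1.14). Neither differed beyond counting error. In non-myelinating glia-like cells the level was 29.1 and 82.4 CPM from 33 UMIs in each library, a ratio of 2.84 (1.70 to 4.74). In mucosal epithelium-like cells it was 26.8 and 56.1 CPM (23 and 68 UMIs), a ratio of 2.09 (1.29 to 3.52), and with the mean of each cell's CPM the ratio was 1.41, below the call. The noise-only values of these 2 classes lay near the immune reference of 18.1 CPM, and the drug-noise values above its 13.7 CPM.

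In neuron-like cells Gfra1 was 14.2 and 8.75 CPM (78 and 38 UMIs), a ratio of 0.614 (0.406 to 0.917), at or below the immune reference. Of these UMIs 26 and 2 lay in the 14 and 3 cells of sub-cluster 7. Without that sub-cluster the ratio was 0.860 (0.546 to 1.34), without sub-cluster 3 it was 0.711 (0.455 to 1.09), and with at least 500 genes required per cell it turned to 1.19 (0.718 to 1.96). The call was lost under each of these.

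Gfra3, the artemin co-receptor gene on chromosome 18, was seen in few cells, with 26 noise-only and 5 drug-noise UMIs in all. Of these, 20 and 4 lay in non-myelinating glia-like cells, at 17.6 and 9.99 CPM, and every other compared class had 3 or fewer in either library. The ratio over all cells was 0.211 (0.0634 to 0.560), and within the glia-like class 0.567 (0.141 to 1.69), which turned to 1.27 with each sub-cluster at its noise-only weight. The class itself held 1250 noise-only but 516 drug-noise cells. No Gfra3 UMI was seen in immune cells of either library.

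Ret, the kinase that Gfra1 and Gfra3 share, was low throughout, with 70 and 40 UMIs. Neuron-like cells had 46 and 17 of them, at 8.40 and 3.91 CPM, a ratio of 0.466 (0.250 to 0.829). Endothelial-like cells had 18 and 14, at 8.82 and 6.42 CPM (0.728, 0.335 to 1.55). The 2 classes did not differ from each other beyond counting error. In neurons, 31 and 6 of the UMIs lay in sub-cluster 4, at 24.2 and 19.4 CPM there, and this sub-cluster was 20.1% of noise-only and 5.91% of drug-noise neuron-like cells. Without it the ratio was 0.763 (0.317 to 1.78), with at least 500 genes required per cell it was 0.5001 (0.229 to 1.01), without sub-cluster 3 it was 0.551 with an interval that included 1, and with each sub-cluster at its noise-only weight 0.823. Ret and Gfra1 were seen in the same cell in 2 noise-only and 1 drug-noise neuron-like cells. No Ret UMI was seen in non-myelinating glia-like or hair cell-like cells.

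Non-myelinating glia-like cells, with 3 called genes, were also divided into 8 sub-clusters after their values had been seen. Within the largest, sub-cluster 0 (430 and 248 cells), Ngfr and Gfra1 had higher levels in the drug-noise library. Ngfr had 52.8 and 124 CPM (2.35, 1.17 to 4.81) and Gfra1 26.4 and 118 CPM (4.47, 1.89 to 11.7). The 16 and 21 Ngfr UMIs lay in 15 and 12 cells, or 3.49% and 4.84% of the sub-cluster. The 8 and 20 Gfra1 UMIs lay in 8 and 16 cells, or 1.86% and 6.45%. The interval treats UMIs as independent, also where 1 cell holds several. In sub-cluster 1, led by Pde4b and Col1a1 (423 and 63 cells), Ngfr was 46.5 and 157 CPM from 16 and 7 UMIs (3.37, 1.17 to 8.65) and Gfra1 20.4 and 89.5 CPM from 7 and 4 UMIs (4.40, 0.944 to 17.3). With each sub-cluster at its noise-only weight, the ratios were 2.58 for Ngfr and 3.66 for Gfra1.

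Leaving out sub-cluster 0, the Ngfr ratio was 1.501 (0.641 to 3.26) from 24 and 10 UMIs and the Gfra1 ratio 1.87 (0.880 to 3.80) from 25 and 13 UMIs, and neither was called; leaving out sub-cluster 1, 2, 3, 4 or 5 kept both calls. Ntrk3 went the other way over the class. Within sub-clusters 0, 1 and 3 its ratios were 0.751 (0.360 to 1.48), 0.592 (0.186 to 1.45) and 0.401 (0.0436 to 1.80). Each of these intervals included 1. Its level was highest in sub-clusters 1 and 5, at 189 and 276 CPM in the noise-only library, and these held 33.8% and 3.84% of noise-only but 12.2% and 0.388% of drug-noise cells of the class. Its ratio was 0.563 with each sub-cluster at its noise-only weight and 0.574 (0.309 to 1.01) without sub-cluster 1, where the call was lost. Sub-cluster 2, with 1 and 0 Ntrk3 UMIs, held 9.44% of noise-only and 21.7% of drug-noise cells of the class. Without it the Ntrk3 ratio was 0.552 (0.330 to 0.881). In this class the summed level of 9 fibrocyte markers was 340 and 690 CPM, that of 12 neuron markers 168 and 310 CPM and that of 10 myelinating Schwann markers 9313 and 8952 CPM; the part of such RNA in these ratios was not tested.

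**Figure D4:**
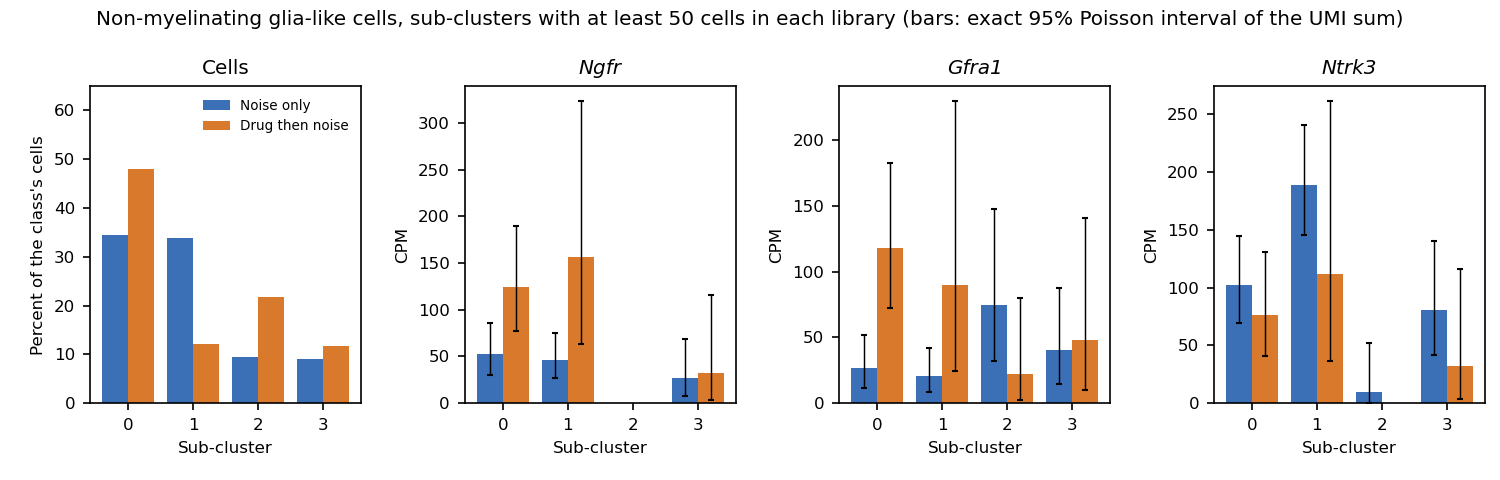
Share of non-myelinating glia-like cells (left, percent) and CPM of Ngfr, Gfra1 and Ntrk3 in the 4 sub-clusters with at least 50 cells in each library, noise-only in blue and drug-noise in orange; error bars are exact 95% Poisson intervals of the UMI sums. Ngfr and Gfra1 were higher in drug-noise cells of sub-cluster 0, and the share of sub-cluster 1 was 33.8% of noise-only and 12.2% of drug-noise cells.

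Of the 200 pairs of a gene and a compared class, 48 had at least 20 UMIs over both libraries, and 12 of these passed 1.5-fold with an interval outside 1. In neuron-like cells 3 of 6 measured genes were called (Ntrk2 higher, Gfra1 and Ret lower), where 6.61% of all genes measured in that class were called by the same rule. In non-myelinating glia-like cells 3 of 6 were called (Ngfr and Gfra1 higher, Ntrk3 lower), against 6.86% of all genes. Mucosal epithelium-like cells had 3 of 3 (Gfra1 higher, Ngfr and Ntrk2 lower), against 14.9%, and fibroblast-like cells 2 of 2 (Ntrk2 and Ntrk3 lower), against 16.8%. In myelinating Schwann-like cells 1 of 4 was called (Ntrk2 lower), against 3.97%. No pair was called in the other 12 classes with a measured pair. The share of all genes called there was 7.38% in hair cell-like, 4.57% in supporting-cell-like, 4.18% in other epithelium-like, 9.55% in fibrocyte-like, 4.46% in strial marginal and 4.61% in strial intermediate cells. It was 5.38% in smooth muscle-like, 5.06% in pericyte-like, 3.55% in endothelial-like, 8.67% in oligodendrocyte-like, 7.81% in osteoblast or osteocyte-like and 5.49% in macrophage-like cells.

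The 10 measured pairs of Ntf3, Bdnf, Cntf and Gdnf had ratios between 0.567 and 1.37, and none passed the rule. In their classes 3.97% to 9.55% of all genes were called, so none of 10 does not set the ligands apart. Cntf in neuron-like cells, with 14 and 3 UMIs, was below the UMI minimum. Its ratio there was 0.270 (0.0498 to 0.968). Over all cells, 2 of 10 genes were called, Gfra3 and Ret, both lower in the drug-noise library (Ret at 0.628, which turned to 1.11 with the mean of each cell's CPM), where 6.62% of all 17256 measured genes were called. That comparison also holds the differences in cell make-up given above. In the fibroblast-like class, which held 255 and 146 cells, the median log2 ratio of all measured genes was -0.10.

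**Figure D5:**
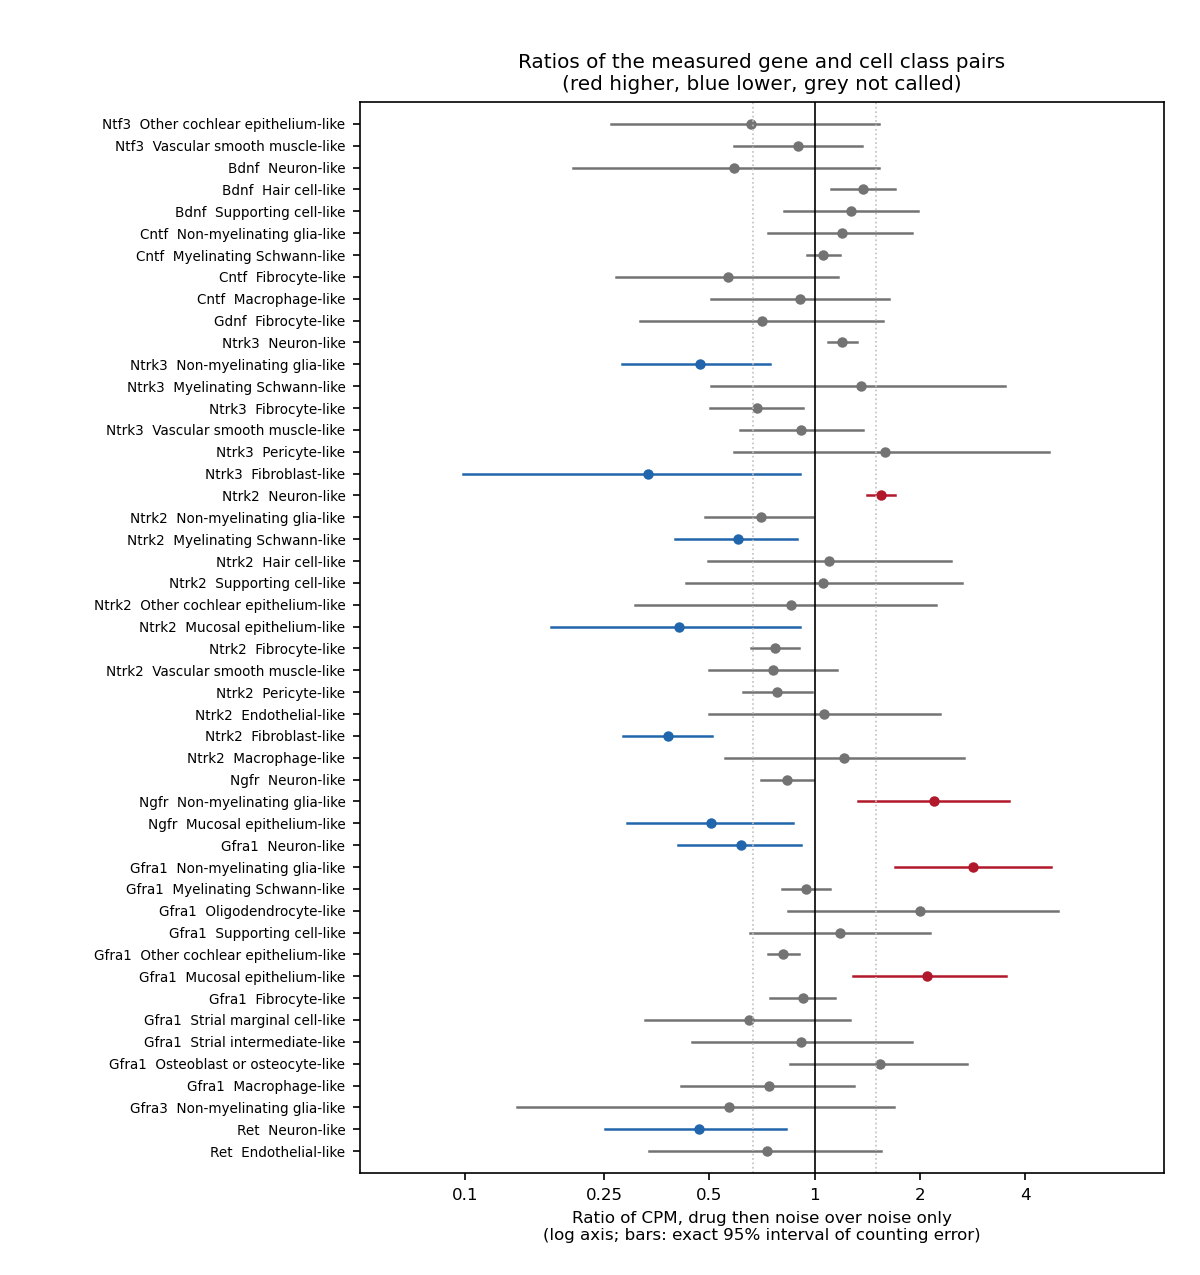
Ratio of drug-noise to noise-only CPM (horizontal log axis) for the 48 measured pairs of a gene and a cell class (rows), with exact 95% intervals of counting error as bars; red pairs were called higher, blue lower and grey not called. Of the 12 called pairs, 4 were higher and 8 lower.

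The pathway partners of the 10 genes came from 12 lists of 68 genes in all. In neuron-like cells 5 of 41 measured list genes were higher (Bex1, Gfra4, Lifr, Nptx2 and Etv5) and 2 lower (Erbb3 and Vgf), where 6.61% of all genes were called in either direction. The median log2 ratio of the list genes was -0.00 there and that of all genes 0.00. In non-myelinating glia-like cells 1 of 37 was higher (Kidins220) and 5 lower (Gfra2, Ncam1, Osmr, Erbb2 and Gfap), with a median of -0.01 against -0.05 for all genes, of which 6.86% were called. In hair cell-like cells none of 21 was higher and 6 were lower (Erbb3, Jun, Egr1, Fos, Socs3 and Junb, most of them immediate-early genes), with a median of -0.39 against -0.04 for all genes, of which 7.38% were called. In myelinating Schwann-like cells 1 of 40 was higher (Sorl1) and 1 lower (Pcsk6), a share near the 3.97% of all genes. In fibroblast-like cells 4 of 37 were higher and 12 lower, where 16.8% of all genes were called. Jun, Arc, Egr1, Fos and Junb were among those lower. Mucosal epithelium-like cells had 6 of 40 higher and 5 lower (14.9% of all genes called), with Arc and Egr1 lower. Oligodendrocyte-like cells had 2 of 27 higher and 3 lower (8.67%), with Egr1 and Junb lower. Lower immediate-early genes were thus not particular to hair cell-like cells.

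Among the partners of the neurotrophins, Ntf5, the gene of neurotrophin-4, reached 14.0 and 12.4 CPM in mucosal epithelium-like cells. Sort1, whose product sortilin pairs with p75, was highest in oligodendrocyte-like cells at 313 and 322 CPM and was 94.9 and 97.9 CPM in myelinating Schwann-like cells.

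For the GDNF family, neurturin (Nrtn) was highest in other cochlear epithelium-like cells, at 116 and 99.8 CPM (ratio 0.863, 0.679 to 1.09), the class that also held the Gfra1 peak. Artn, the ligand of Gfra3, had 21 UMIs in each library, and Pspn had none. Gfra2, the neurturin co-receptor, was 88.4 and 75.5 CPM in pericyte-like cells and 46.7 and 12.5 CPM in non-myelinating glia-like cells, where its ratio was 0.267 (0.0834 to 0.664) from 53 and 5 UMIs. Gfra4 was 35.8 and 60.8 CPM in neuron-like cells, a ratio of 1.70 (1.41 to 2.05), and 142 and 162 CPM in the unnamed cluster 16.

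The receptor chain that binds Cntf, Cntfr, was 132 and 103 CPM in neuron-like cells (ratio 0.778, 0.690 to 0.877) and 132 and 105 CPM in fibrocyte-like cells. Its partner Lifr was 80.7 and 152 CPM in neuron-like cells, a ratio of 1.89 (1.67 to 2.13), and was highest in osteoblast or osteocyte-like cells at 854 and 722 CPM. Il6st, the shared gp130 chain, was 117 CPM in non-myelinating glia-like cells of both libraries. Myelinating Schwann-like cells, the main holders of Cntf, had 17 and 18 UMIs of Cntfr.

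Read by compartment, ligand and receptor RNA were partly in different cells and partly in the same classes. Myelinating Schwann-like cells held Cntf together with Gfra1, at 98.9 and 93.4 CPM. The non-myelinating class had UMIs of Cntf, Ntrk2, Ntrk3, Ngfr, Gfra1 and Gfra3, but not evenly. The part of free RNA in the Cntf of this class was not tested. Its sub-cluster 2, of 118 and 112 cells, had 1 and 0 UMIs each of Cntf and Ntrk3 and none of Ngfr and Gfra3. Neuron-like cells held Ntrk2, Ntrk3, Ngfr, Ret and Cntfr and had no Ntf3 UMI and 15 and 7 of Bdnf. Hair cell-like cells held Bdnf and, with 14 and 15 UMIs, some RNA of its receptor gene Ntrk2, while Ntrk3, Ngfr and Ret were at 0 UMIs there. Other epithelium held Gfra1 with Nrtn. In the lateral wall, fibrocyte-like cells held Ntrk2, Ntrk3 and Gfra1 and 15 and 14 UMIs of Gdnf. Of the vessel classes, whose place in the tissue was not measured, smooth muscle-like cells held Ntf3 with Ntrk3 and pericyte-like cells Ntrk2.

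The genes most like each of these in their pattern over the 20 compared classes were found by Pearson's r of log2(CPM + 1). The points are classes of the same 2 libraries and differ in depth. Bdnf was most like Smpx (r = 0.91), St8sia2 and Drc1, Cntf most like Ncmap (0.92), Gm42788 and Pou3f1, and Ntf3 most like Fbxl22 (0.84). Ntrk3 was most like Gm9885 (0.88), Ntrk2 most like Iglon5 (0.86), Ngfr most like Gria2 (0.81), Ret most like Ptprr (0.93) and Gfra1 most like Cltrn (0.77). Ncmap is 1 of the markers that named the myelinating class. Among the 10 genes themselves, the pair with the highest r was Ntrk2 and Ntrk3, at 0.73.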

How the data were processed

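The matrices hold UMI counts per gene and cell, deposited by the authors for 1 library per group and made with Cell Ranger 5.0.1, per the file headers. The submitters' processing notes name Cell Ranger 5.0, STAR, Seurat 3.2.2 and mm10 or GRCm38. Whether counting used strand was not given in the sources used here. Deposited counts cover 18545 noise-only and 21773 drug-noise barcodes.

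Cells with at least 300 genes, at least 500 UMIs and at most 20% mitochondrial UMIs were kept, and doublets predicted by scrublet were removed (805 and 2597). Cells of both libraries were clustered together in scanpy 1.11.5 (Python 3.11.15, igraph 0.11.9) on 3000 variable genes, with 30 principal components, 15 neighbours and Leiden resolution 1, leaving out the 10 genes and the 68 pathway genes. Of 47 clusters, 10 stayed unnamed. UMIs were summed per class and library. A ratio is drug-noise over noise-only CPM, with an exact conditional binomial 95% interval (scipy 1.17.1). A pair was called at 1.5-fold or more in either direction with an interval outside 1 and at least 20 UMIs over both libraries. A count of 0 has a floor of 3 counts. TMM factors came from edgeR 4.0.16 (R 4.3.3). Of 32285 gene IDs, 32235 were found in GENCODE M21, whose GRCm38 coordinates are given. The ratio was checked on simulated data. Those data were drawn with counting error alone, so the check does not cover variation between cells, ears or libraries.

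The 10 genes, the lists and the markers were chosen with earlier results of these data known. All 10 genes were named, with ligands, receptors and co-receptors of their pathways and, per gene, up to 3 genes of like pattern. Pathway genes named beside a count were chosen after their values were seen, as were the sub-clusters (resolution 0.5 on 2000 variable genes and 15 components). Alternatives changed the cell filter, doublet removal, resolution, clustering genes, scaling, weighting, UMI minimum and depth. Some genes of the pathway lists and of the cluster markers are not reported here.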

Additional observations from a re-analysis of the deposited data

Results flagged for a closer look

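The difference between the libraries had opposite directions in different cell classes for 3 receptor genes, each past the 1.5-fold call in the main settings. Each group was 1 library, so the difference between classes was not tested. For Ntrk2, the ratio of drug-noise to noise-only CPM was 1.55 in neuron-like cells, but 0.382 in fibroblast-like, 0.410 in mucosal epithelium-like and 0.602 in myelinating Schwann-like cells. For Ngfr, it was 2.20 in non-myelinating Schwann or satellite glia-like cells and 0.506 in mucosal epithelium-like cells. For Gfra1, it was 2.84 in the non-myelinating glia-like class and 2.09 in the mucosal epithelium-like class, but 0.614 in neuron-like cells. Some of these calls did not hold under every alternative. In neuron-like cells, Ntrk2 stood at 1.16 without sub-cluster 3 and at 1.07 with each sub-cluster at its noise-only weight, and Gfra1 stood at 0.860 without sub-cluster 7 and at 1.19 with at least 500 genes per cell. Ntrk2 in myelinating Schwann-like cells stood at 1.20 with thinned cells and in mucosal epithelium-like cells at 0.732 with predicted doublets kept. Gfra1 in mucosal epithelium-like cells stood at 1.41 with the mean of each cell's CPM. Without sub-cluster 0 of the non-myelinating glia-like class, the intervals of its Ngfr ratio (1.501) and its Gfra1 ratio (1.87) included 1.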

How the results depend on the processing

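Of the 48 measured pairs of a gene and a class, 12 were called. This count was 4 of 20 pairs with at least 1000 genes per cell, 2 of 18 with each cell thinned to 1000 UMIs, 20 with the mean of each cell's CPM and 19 with each cluster at its noise-only weight; the last 2 settings have no counting interval, so the fold alone made the call. Over all cells the count was 2, and 1 with thinned cells. The count of pathway pairs was 89 of 608, and 55 of 322 with at least 1000 genes per cell. Among the called results, the ratio changed sides for Ret over all cells, at 1.11 with the mean of each cell's CPM, for Ntrk2 in myelinating Schwann-like cells, at 1.20 (0.519 to 2.63) with thinned cells, and for Gfra1 in neuron-like cells, at 1.19 (0.718 to 1.96) with at least 500 genes per cell; the cause was not tested. Results that were not called changed sides as well, among them Ngfr in neuron-like cells at 1.40 with thinned cells, Ntrk2 in fibrocyte-like cells at 1.16 with resolution 2, Gdnf in fibrocyte-like cells at up to 1.15, Gfra3 in non-myelinating glia-like cells at 1.27 with each sub-cluster at its noise-only weight, and over all cells Cntf at 1.24 and Ntrk3 under 6 alternatives. Under the alternatives that gave a value, Ntrk2 in fibroblast-like cells ranged from 0.360 to 0.600 and Ngfr in mucosal epithelium-like cells from 0.439 to 0.561. Ngfr in non-myelinating glia-like cells was 1.72, with an interval that included 1, when the 10 genes and the pathway genes were allowed among the clustering genes. TMM scaling moved the log2 ratio by more than 0.1 in neutrophil-like cells (0.14) and in no other compared class. No paired analysis was possible because each group is 1 pooled library. Depth limits Gdnf, Gfra3 and Ret most, with 32, 26 and 70 noise-only UMIs in all.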
